A study of Mus musculus with 12 samples.

Results

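Hox genes were examined at their promoters in forebrain tissue of mouse embryos, as 38 listed genes of the 4 Hox clusters among 55276 gene symbols with a promoter window. The members were the windows whose symbol was on the list, and where a symbol had several windows the one with the highest mean signal over the 8 antibody libraries was used. Cluster A held 10 of the listed genes, cluster B 10, cluster C 9 and cluster D 9. By paralogue number, 7 were anterior (groups 1 to 3), 15 central (groups 4 to 8) and 16 posterior (groups 9 to 13).

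The embryos were untreated C57BL/6 mice at E12.5, either wild type or of a genotype named EedcKO, in which Eed is the altered gene. The sources used here do not give the driver of the deletion, the deleted part of Eed, the sex or how many embryos were pooled. Each genotype had 1 library for each of 6 targets: Eed and input DNA by X-ChIP, which is chromatin immunoprecipitation after cross-linking, and both histone marks, RNA polymerase II (RNA-Pol2) and control IgG by CUT&Tag, in which an antibody guides a transposase to its target. With 1 library per genotype and target, no difference below has a replicate check, no p-value is given, and intervals cover counting error only. In bulk tissue, fewer cells carrying a mark and less of the mark per cell cannot be told apart.

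Hox genes encode homeodomain transcription factors that give cells their position along the head to tail axis. Their order along the chromosome follows the order of their expression along the body, with low paralogue numbers active further forward and high numbers further back. The forebrain lies in front of the Hox expression domains, and there the clusters are a textbook target of Polycomb repression: Polycomb repressive complex 2, with Eed as a core subunit, writes trimethylation on lysine 27 of histone H3, a mark of silent genes. Acetylation of the same residue, H3K27ac, marks active promoters and enhancers and cannot share a histone tail position with the trimethyl mark.

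Total promoter counts ran from 948955 to 3842779 per library, and all values are read counts in windows of 2 kb centred on an annotated start site. Each EedcKO histone library was more like the wild type library of the other mark than that of its own label. Across 51174 genes, the library labelled EedcKO H3K27ac correlated with wild type H3K27me3 at Pearson r = 0.92 and Spearman rho = 0.84, and with wild type H3K27ac at r = 0.55 and rho = 0.72. The library labelled EedcKO H3K27me3 correlated with wild type H3K27ac at r = 0.79 and rho = 0.81, and with wild type H3K27me3 at r = 0.58 and rho = 0.70. These are correlations across genes, which are not replicates. Each histone comparison is therefore given in 2 readings, as labelled and with both labels exchanged. The tissue label was checked with 8 genes of forebrain identity, whose wild type H3K27ac counts ranged from 22 to 90 with a median of 59. The 8 hindbrain and spinal cord genes had a median of 31, the 5 mesenchyme genes 28, the 5 endothelial genes 24, the 4 microglia and macrophage genes 43 and the 4 erythroid genes 12.

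In wild type forebrain, H3K27me3 covered the promoters of all 38 listed Hox genes at high and similar levels, while H3K27ac and RNA-Pol2 there had medians at or below the IgG control. H3K27me3 counts ran from 883 at Hoxb8 to 2136 at Hoxd12, with a median of 1382, whereas the median over all windows was 26. Wild type IgG at the same Hox windows ran from 5 at Hoxa3 to 40 at Hoxc4. No Hox count for H3K27me3 came near the IgG range. In RPKM, counts scaled by window length and library total, the median Hox promoter was 4.80 above IgG on the log2 scale, with a 95% interval of the median over genes of 4.63 to 4.97. All 38 were at least 2-fold above IgG, a level that 7.62% of all tested windows reached. Among 21230 protein-coding genes ranked by wild type H3K27me3, the best-placed Hox gene, Hoxd12, stood at rank 1, the median Hox gene at 106 and the last at 357.

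The evenness of this cover set H3K27me3 apart from Eed itself. Across the 38 Hox promoters the highest H3K27me3 count was 2.42 times the lowest, and the coefficient of variation was 20.9%. For wild type Eed the highest was 47.5 times the lowest, and the coefficient of variation was 80.8%. Both ratios are descriptions of 1 library each.

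The promoter sequences at the ends of the wild type H3K27me3 range are shown to set the most and the least marked start beside each other. They are the 250 bases before the RefSeq start in assembly GRCm38.p6, printed 5′ to 3′ on the strand of the gene, with CpG dinucleotides in capitals. Hoxd12, a posterior gene of limb and trunk patterning, had the highest H3K27me3 count, and Hoxb8, a central gene, had the lowest. Hoxb1, the anterior gene that acts in the hindbrain, is shown as the cluster end with the highest wild type H3K27ac.
Hoxd12 (chr2:74674763-74675012, + strand): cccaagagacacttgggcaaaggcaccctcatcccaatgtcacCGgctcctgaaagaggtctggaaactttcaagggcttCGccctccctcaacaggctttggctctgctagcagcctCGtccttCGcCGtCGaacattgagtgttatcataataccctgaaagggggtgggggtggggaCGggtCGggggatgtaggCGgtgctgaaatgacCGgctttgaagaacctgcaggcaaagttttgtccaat
Hoxb8 (chr11:96281655-96281904, + strand): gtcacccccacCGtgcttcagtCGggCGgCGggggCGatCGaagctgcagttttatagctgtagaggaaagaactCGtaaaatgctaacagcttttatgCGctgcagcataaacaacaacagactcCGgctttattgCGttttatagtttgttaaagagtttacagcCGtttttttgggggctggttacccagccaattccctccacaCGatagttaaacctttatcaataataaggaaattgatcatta
Hoxb1 (chr11:96365508-96365757, + strand): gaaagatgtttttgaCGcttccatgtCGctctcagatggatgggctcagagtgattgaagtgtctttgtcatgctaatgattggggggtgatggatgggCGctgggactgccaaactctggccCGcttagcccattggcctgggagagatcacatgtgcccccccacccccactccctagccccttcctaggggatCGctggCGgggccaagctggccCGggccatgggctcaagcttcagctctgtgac

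Hoxd12 carries 10 CpG in this stretch with 55.6% G and C, Hoxb8 carries 12 with 44.4%, and Hoxb1 carries 7 with 59.2%. The CpG observed over expected ratio was 0.52 at Hoxd12, 0.97 at Hoxb8 and 0.32 at Hoxb1. Of these 3 promoters, the one with the lowest H3K27me3 thus had the highest CpG ratio. A RefSeq start was in the promoter table for 22 of the 38 Hox genes, with 24 promoters in all. Their median CpG ratio was 0.72 against 0.37 over all 32851 promoters of the table, and 54.2% of them against 34.0% reached 0.6. Across the 18 Hox genes whose RefSeq start lay inside the counted window, the CpG number correlated with wild type H3K27me3 at r = 0.08 and rho = 0.17. With wild type Eed it gave r = 0.52 and rho = 0.43. Values of that size were not particular to Eed. The library labelled EedcKO H3K27me3 gave r = 0.70 and rho = 0.78, and EedcKO input, a control, r = -0.64 and rho = -0.56. A search of both strands of the 250 bases for TGATTNAT, a composite site of Hox and Pbx proteins, found it in Hoxa2 and Hoxd11, and in 2.82% of all promoters. The spaced direct repeat of AGGTCA that retinoic acid receptors bind, of the type DR5, was in none of the Hox promoters and in 0.00913% of all. The 2 motifs share no core, and a match is a description of letters only.

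Hoxd12 had 2136 counts in wild type H3K27me3, 16 in wild type H3K27ac, 63 in wild type RNA-Pol2, 22 in wild type IgG, 47 in wild type Eed and 32 in wild type input. In EedcKO it had 18 counts in the library labelled H3K27me3, 2849 in the library labelled H3K27ac, 63 in RNA-Pol2, 33 in IgG, 61 in Eed and 16 in input. Hoxb8 had 883, 0, 43 and 18 counts in wild type H3K27me3, H3K27ac, RNA-Pol2 and IgG, with 24 in Eed and 19 in input. Its EedcKO libraries held 24 counts where labelled H3K27me3, 1159 where labelled H3K27ac, 24 in RNA-Pol2, 28 in IgG, 48 in Eed and 21 in input. Both genes, at opposite ends of the wild type range, had their single high EedcKO count in the library labelled H3K27ac.

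**Figure D1:**
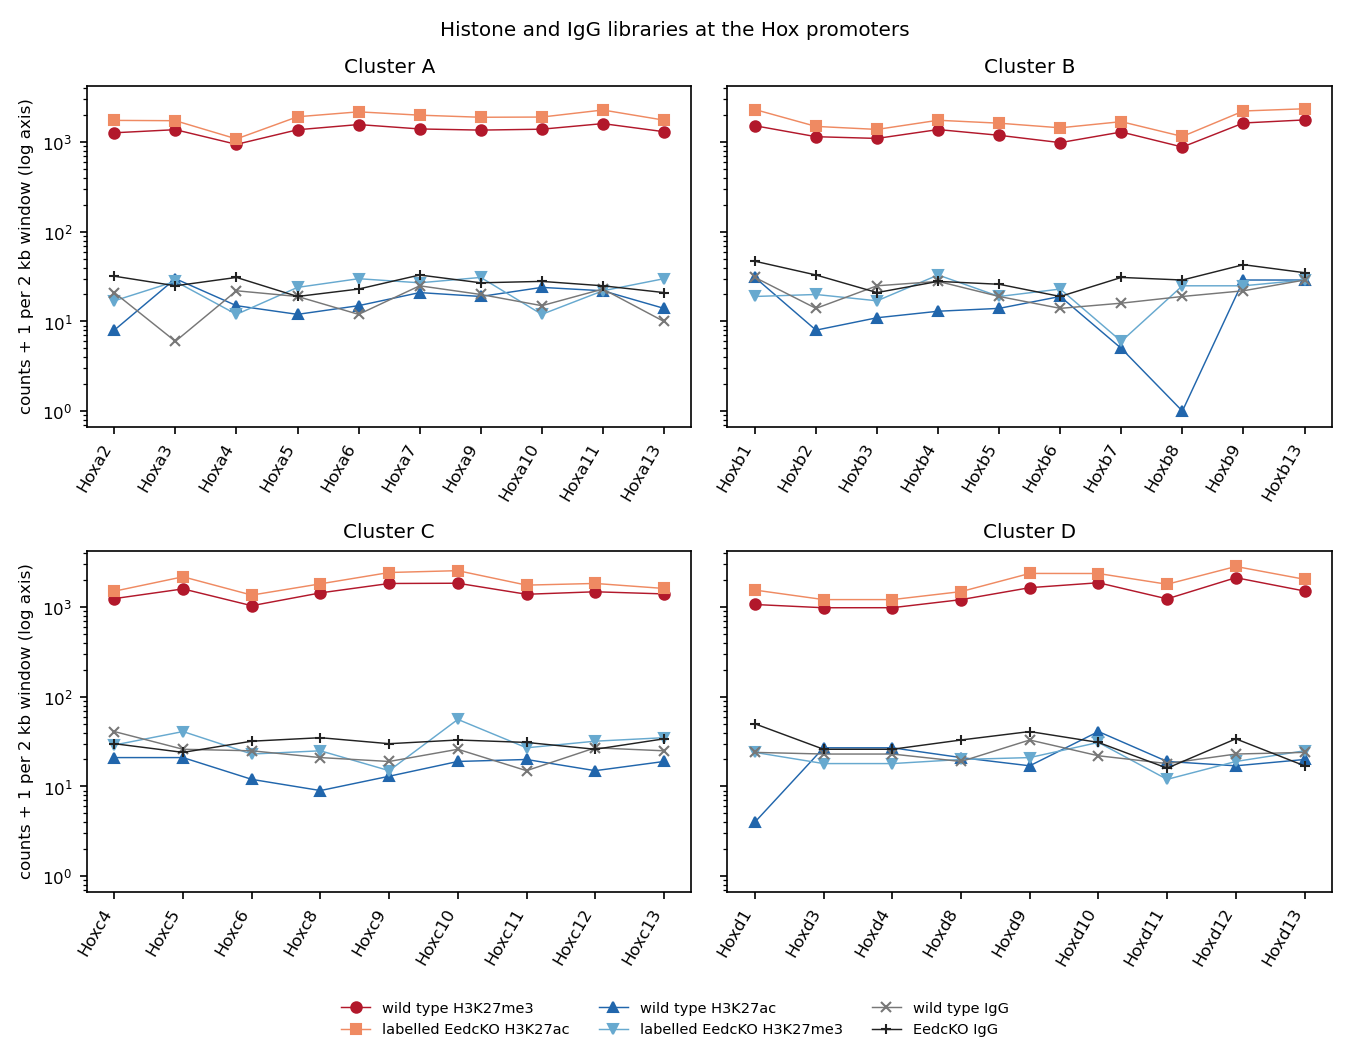
Counts + 1 per 2 kb promoter window (log axis) of the 38 listed Hox genes, in order of paralogue number within clusters A to D, in the 4 histone and 2 IgG libraries. Wild type H3K27me3 and the library labelled EedcKO H3K27ac lie at 883 or more at every gene, and the other 4 libraries at 55 or fewer.

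Wild type H3K27ac ran from 0 counts at Hoxb8 to 40 at Hoxd10, with a median of 18 at the Hox promoters against 26 over all windows. Relative to IgG the median Hox promoter was at -0.77 on the log2 scale. Hoxa3 alone was at least 2-fold above IgG, where its IgG count was the lowest of the 38, against 15.9% of all tested windows at that level. Hoxb1, at the anterior end of cluster B, had 30 H3K27ac and 30 IgG counts, and Hoxd1, at the anterior end of cluster D, had 3 and 23. The forebrain gene Sox2, a progenitor factor, had 90 H3K27ac counts, above every Hox gene. Other forebrain genes overlapped the Hox range, Otx2 with 38, Lhx2 with 34 and Six3 with 22.

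Wild type RNA-Pol2 ran from 15 counts at Hoxb2 to 64 at Hoxb1, around a median of 36.5, and the median over all windows was 38. Relative to IgG the Hox median was at -0.03, and 1 of 38, again Hoxa3, was at least 2-fold above IgG, against 11.3% of all tested windows. RNA-Pol2 at the Hox promoters thus had a median near that of all windows, while H3K27ac there had a lower one. Against protein-coding genes both Hox medians were lower, as those genes had medians of 54 for RNA-Pol2 and 49 for H3K27ac.

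In the EedcKO libraries, the high signal over the Hox genes lay in the library labelled H3K27ac. It ran from 1088 counts at Hoxa4 to 2849 at Hoxd12, with a median of 1784, and all 38 genes were at least 2-fold above IgG, which 6.22% of all tested windows were. In the library labelled H3K27me3, counts ran from 5 at Hoxb7 to 55 at Hoxc10 with a median of 23, and EedcKO IgG ran from 15 at Hoxd11 to 49 at Hoxd1 with a median of 29. None of the 38 was at least 2-fold above IgG in that library, against 5.85% of all tested windows.

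Read by the labels, H3K27me3 at every listed Hox gene was far lower in EedcKO than in wild type. Ratios of EedcKO to wild type are given on the log2 scale with a pseudocount of 0.5 RPKM, relative to the median of all tested windows. The Hox median was -5.75, with an interval of -5.87 to -5.54 over genes. All 38 were at least 2-fold lower and 0 higher, beside 13% and 6.81% of all 50165 tested windows. The 4 lowest ratios were at Hoxb7 (-7.55), Hoxc9 (-6.82), Hoxa10 (-6.73) and Hoxd12 (-6.71). The 4 closest to 0 were at Hoxc10 (-4.98), Hoxb8 (-5.05), Hoxc5 (-5.21) and Hoxc13 (-5.25). The counting interval of Hoxb7 was -9.59 to -6.74 and that of Hoxc10 was -5.43 to -4.63, so both ends differed beyond counting error. The order follows the few counts in the library labelled EedcKO H3K27me3, 5 at Hoxb7 and 55 at Hoxc10.

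With the labels exchanged, H3K27me3 at the same genes was slightly higher in EedcKO relative to the median window, by less than 2-fold at all 38. The Hox median was 0.51, with an interval of 0.44 to 0.54. None was at least 2-fold lower or higher, beside 4.49% and 2.55% of all 48424 tested windows. Ratios ran from 0.29 at Hoxa4 to 0.69 at Hoxb1, and all 38 counting intervals lay above 0. The other high ratios were at Hoxb6 (0.64), Hoxd1 (0.63) and Hoxd11 (0.63), and the other low ones at Hoxc13 (0.29), Hoxc4 (0.37) and Hoxd3 (0.39). Without the shift to the median of all windows the Hox median was 0.22, and the shift of -0.29 raised the counting intervals as well. Over its own IgG, the library labelled EedcKO H3K27ac had a Hox median of 4.73, against 4.80 for wild type H3K27me3. The direction of this small difference therefore depends on the scaling. Thus, relative to the median window, the same wild type values gave a far lower or a slightly higher Hox median, depending on which EedcKO library was taken as H3K27me3.

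H3K27ac showed the mirror of this. As labelled, the Hox median was 6.78 higher in EedcKO, with an interval of 6.48 to 7.12, and all 38 genes were at least 2-fold higher, beside 18.2% of all 47998 tested windows, and 0 lower, beside 11.7%. The highest ratios were at Hoxb8 (9.36), Hoxd1 (8.44), Hoxb7 (8.30) and Hoxa2 (7.75). Those genes had 0, 3, 4 and 7 wild type H3K27ac counts, among the lowest of the list. For Hoxb8, with no wild type count, the ratio is a bound: with a floor of 3 counts per library it was at least 424-fold higher. The lowest ratios were at Hoxd3 and Hoxd4 (5.58 each), Hoxa3 (5.95) and Hoxd10 (5.96). Windows of Hoxd3 and Hoxd4 nearly coincide, so they count the same reads.

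With the labels exchanged, H3K27ac at the Hox genes had a median of 0.46 and stayed at low counts in both genotypes. Of 38 genes, 12 were at least 2-fold higher and 0 at least 2-fold lower, beside 13% and 6.18% of all 50021 tested windows. The counting interval included 0 at 26 genes. With a pseudocount of 2 RPKM 5 genes were at least 2-fold higher, beside 6.88% of all windows. With IgG subtracted 10 were higher, beside 32.4%, and 2 lower, beside 34.8%, although 5 of the 38 then reached 1 RPKM. In that setting the share of Hox genes that were higher was not above that of all windows. The highest were Hoxb8 (3.81, and at least 8.51-fold higher by the floor), Hoxd1 (2.41), Hoxc10 (1.60) and Hoxc8 (1.46). The lowest were Hoxa10 (-0.89), Hoxb1 (-0.61), Hoxd11 (-0.56) and the window shared by Hoxd3 and Hoxd4 (-0.49). Hoxd1 had 3 counts in wild type and 23 in EedcKO under this reading, and 23 and 49 in the IgG controls of wild type and EedcKO. The EedcKO value at Hoxd1 was therefore below its own control, and it was not above it at Hoxb8 either, with 24 counts against 28 in IgG.

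**Figure D2:**
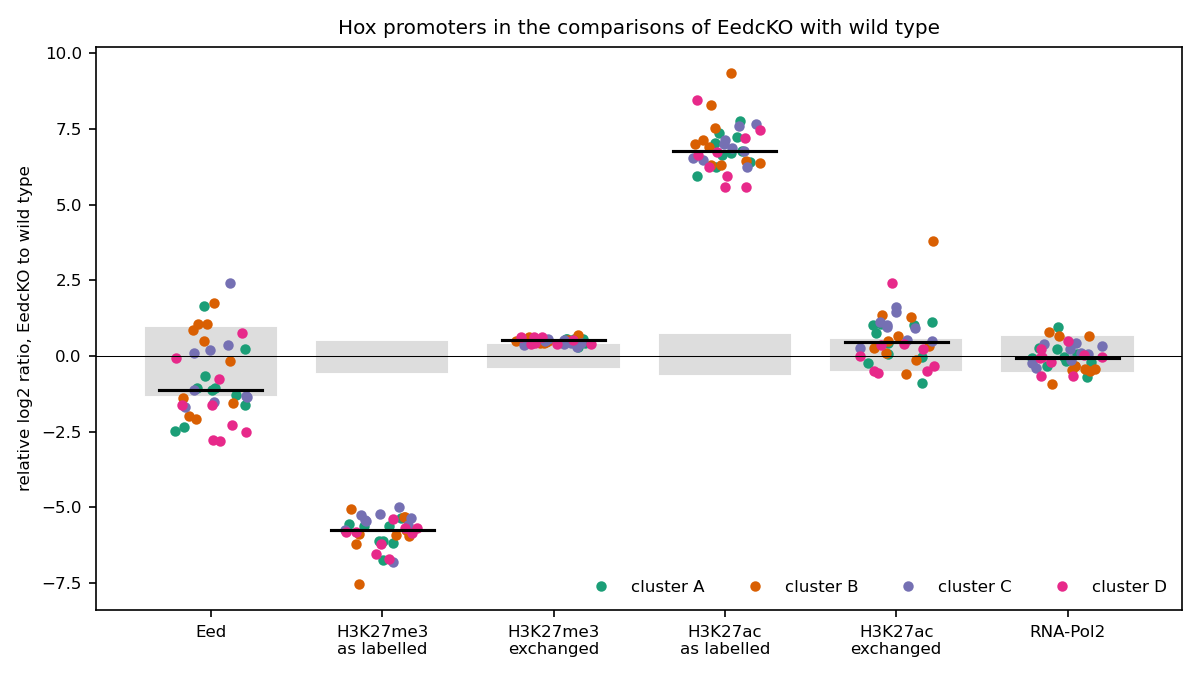
Relative log2 ratio of EedcKO to wild type at the 38 listed Hox promoters for 6 comparisons, with points coloured by cluster, a black bar at the Hox median and a grey box from the lower to the upper quartile of all tested windows. The histone medians are -5.75 and 6.78 as labelled and 0.51 and 0.46 with the labels exchanged, and the Eed points spread from -2.80 to 2.42.

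The profile along the genes was also nearly the same in the library labelled EedcKO H3K27ac and in wild type H3K27me3. Across the 38 Hox genes both libraries correlated at r = 0.96 and rho = 0.95, although all of these genes are high in both. The library labelled EedcKO H3K27me3 correlated with wild type H3K27me3 at r = 0.32 and rho = 0.39, and with wild type H3K27ac at r = 0.22 and rho = 0.18. Among the latter pair the counts are few, and weak correlations at that depth are no finding. Points in these correlations share the library, and 2 pairs of Hox windows overlap, Hoxc5 with Hoxc10 and Hoxd3 with Hoxd4.

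RNA-Pol2 at the Hox genes differed by less than 2-fold between the genotypes relative to the median window, a comparison that does not depend on the histone labels. EedcKO counts ran from 21 at Hoxd8 to 82 at Hoxc10 with a median of 42, where wild type had 36.5. The Hox median of the relative ratio was -0.06, with an interval of -0.25 to 0.11. No gene was at least 2-fold lower or higher, beside 7.86% and 12.2% of all 50379 tested windows. The counting interval included 0 at 33 genes. The highest ratios were at Hoxa9 (0.94), Hoxb13 (0.78), Hoxb9 (0.65) and Hoxb2 (0.65), and the lowest at Hoxb8 (-0.93), Hoxa5 (-0.70), Hoxd1 (-0.68) and Hoxd8 (-0.65). At Hoxb13 the wild type count was 36 and the EedcKO count 73, where IgG gave 28 and 34. Scaled by library totals without the shift, the Hox median was -0.47 and 4 genes were at least 2-fold lower, beside 21.1% of all windows, with 0 higher. With IgG subtracted it was -0.38 and 15 genes were at least 2-fold lower, beside 28.5%, although 10 of the 38 then reached the minimum level of 1 RPKM.

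Relative to EedcKO IgG the median Hox promoter had an RNA-Pol2 level of -0.72 on the log2 scale, and 0 of 38 genes were at least 2-fold above the control, against 11.8% of all tested windows. Levels of RNA-Pol2 in EedcKO correlated across the 38 Hox genes with wild type H3K27me3 at r = 0.72 and rho = 0.81, while wild type RNA-Pol2 gave 0.33 and 0.35. Over all genes the same pairs gave 0.59 and 0.73 in EedcKO and 0.61 and 0.73 in wild type. The posterior class had the highest Hox median in EedcKO RNA-Pol2, 49 counts against 40 in the anterior and 39 in the central class, with ranges that overlapped.

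Eed in wild type forebrain was uneven along the clusters, with promoters of high and of background signal side by side. Counts ran from 6 at Hoxc4 to 285 at Hoxd8, with a median of 87, and wild type input ran from 15 at Hoxb2 to 37 at Hoxb5. Relative to input, 19 genes were at least 2-fold higher, beside 14.5% of all tested windows, and 6 were at least 2-fold lower, beside 59.4%. In all, 25 Hox promoters were above input and 13 below it. Hoxd8 (285), Hoxd1 (282), Hoxd9 (253) and Hoxd13 (245) had the highest counts, all in cluster D. Hoxc4 (6), Hoxb2 (8), and Hoxa10 and Hoxb3 (12 each) had the lowest, all below their input of 23, 15, 26 and 16.

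The promoters of Hoxd8 and Hoxa10 are shown to compare a start with and without Eed signal in its counted window. Hoxd8 is a central gene with the highest Eed count. Hoxa10, a posterior gene of uterus and limb development, had the lowest Eed count among genes whose RefSeq start lay in the window. This pair was chosen after its values were seen. Capitals again mark CpG in the 250 bases before the start.
Hoxd8 (chr2:74704365-74704614, + strand): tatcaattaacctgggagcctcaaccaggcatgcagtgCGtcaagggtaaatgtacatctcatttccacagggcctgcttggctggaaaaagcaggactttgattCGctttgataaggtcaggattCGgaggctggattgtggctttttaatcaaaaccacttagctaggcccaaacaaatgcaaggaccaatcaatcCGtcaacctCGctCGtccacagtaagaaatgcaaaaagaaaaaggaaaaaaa
Hoxa10 (chr6:52240855-52241104, - strand): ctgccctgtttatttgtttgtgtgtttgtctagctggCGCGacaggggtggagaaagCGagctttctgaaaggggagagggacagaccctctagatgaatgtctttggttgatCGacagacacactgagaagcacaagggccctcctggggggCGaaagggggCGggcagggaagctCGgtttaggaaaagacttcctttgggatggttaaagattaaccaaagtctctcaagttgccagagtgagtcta

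The Hoxd8 stretch has 6 CpG and 44.4% G and C, and the Hoxa10 stretch has 7 CpG and 51.6%. Their CpG ratios were 0.49 and 0.46, so this measure did not separate them. Hoxa10 has another RefSeq start outside the counted window, with 20 CpG and a ratio of 0.91. Hoxd8 had 285 Eed and 20 input counts in wild type and 54 and 22 in EedcKO. Hoxa10 had 12 Eed and 26 input counts in wild type and 58 and 23 in EedcKO. In EedcKO both promoters were alike in Eed, and in wild type they stood far apart.

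Wild type Eed and wild type H3K27me3 were hardly related across the 38 Hox genes, at r = 0.11 and rho = 0.06, whereas over all genes r was 0.53 and rho 0.50. Hoxa10 had 1397 and Hoxd8 1214 H3K27me3 counts, close to each other despite their Eed counts. Hoxc4, with the lowest Eed count, had 1247. Its counted window, chr15:103017934-103019933, lies 15461 bases from the RefSeq start of the gene, so its values describe another annotated start. For Hoxa7, Hoxa9 and Hoxd4 the RefSeq start also lay outside the window.

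In EedcKO, Eed at the Hox promoters was far more even than in wild type. Counts ran from 38 at Hoxb3 to 84 at Hoxa11 with a median of 53.5, and EedcKO input ran from 11 to 33 with a median of 21. The variance over the 38 genes was 1.59 times the mean, above that of input at 1.03. In wild type Eed it was 64.1 times the mean. Across these genes EedcKO Eed correlated with wild type H3K27me3 at r = 0.48 and rho = 0.52, where wild type Eed gave 0.11 and 0.06. Over all genes EedcKO Eed gave 0.62 and 0.75. Per RPKM, 11 wild type Hox promoters lay above the highest EedcKO value, 14 below the lowest and 13 within the EedcKO range. Against input, 37 of 38 EedcKO promoters were above 0 on the log2 scale with a median of 0.70, and 8 were at least 2-fold higher, beside 4.71% of all tested windows. The same median over protein-coding genes was 0.23. The exception below input was Hoxd11, which had 46 Eed and 33 input counts from libraries of 1446764 and 948955.

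**Figure D3:**
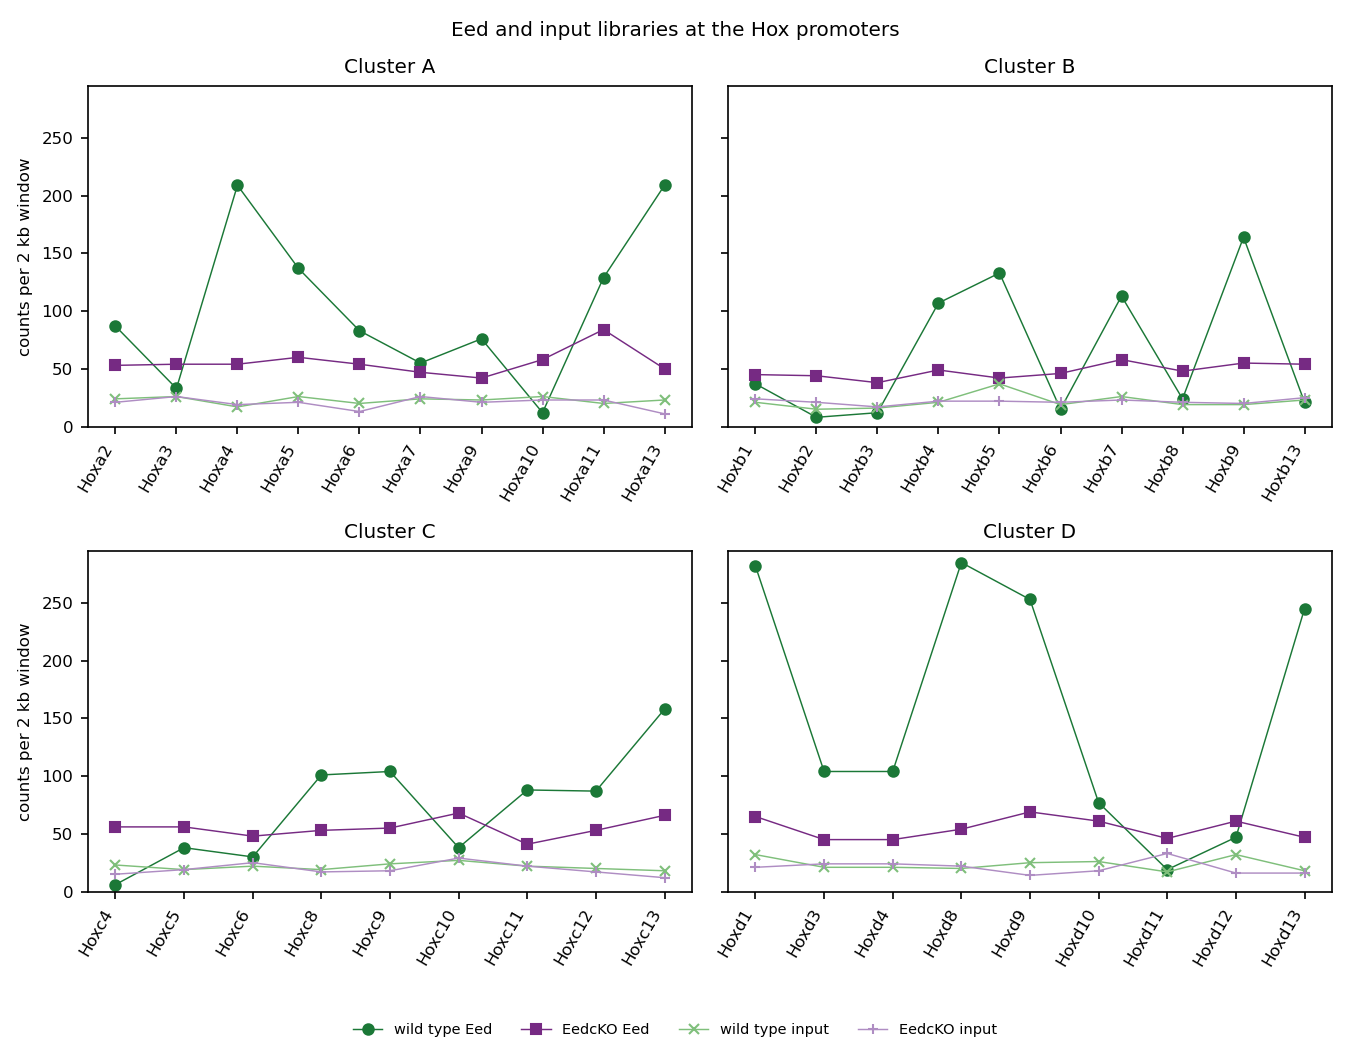
Counts per 2 kb promoter window of the 38 listed Hox genes, in order of paralogue number within clusters A to D, for Eed and input in wild type and EedcKO. Wild type Eed spreads from 6 to 285 and EedcKO Eed from 38 to 84, and both inputs stay at 37 or below.

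Set against wild type and relative to the median window, Eed was lower in EedcKO at most Hox promoters, but the split and its size depend on the scaling. The Hox median of the relative ratio was -1.14, with an interval of -1.54 to -0.08. Of 38 genes, 22 were at least 2-fold lower, beside 30.0% of all 50751 tested windows, and 5 were at least 2-fold higher, beside 22.6%. Counting intervals lay below 0 at 24 genes, above 0 at 7 and included 0 at 7. The 4 lowest were Hoxd8 (-2.80), Hoxd13 (-2.78), Hoxd1 (-2.53) and Hoxa13 (-2.47), all with over 200 wild type counts. The 4 highest were Hoxc4 (2.42), Hoxb2 (1.76), Hoxa10 (1.66) and Hoxb3 (1.06), all below input in wild type. By library totals without the shift the Hox median was -0.26, with 8 genes lower beside 14.7% of all windows and 11 higher beside 47.2%. With both libraries scaled to 1 median it was -1.81, with 24 lower beside 39.2% and 2 higher beside 8.3%. With input subtracted it was -0.47, with 14 lower beside 42.9% and 13 higher beside 46.4%. In that last setting the share of Hox genes that were lower was not above that of all windows.

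By cluster, the clearest differences were in wild type Eed. Its median count was 30.5 in cluster B, 85 in cluster A, 87 in cluster C and 104 in cluster D, with overlapping ranges in all 4. The relative Eed ratio followed, with a median of 0.16 in cluster B, -1.09 in A, -1.14 in C and -1.62 in D. H3K27me3 in wild type was closer between clusters, with medians of 1378 in A, 1247 in B, 1445 in C and 1239 in D. For the H3K27me3 reading as labelled the cluster medians lay between -5.86 and -5.41, and for the exchanged reading between 0.43 and 0.56. RNA-Pol2 ratios had medians of -0.06, -0.39, 0.11 and -0.04 in A to D. Genes of a cluster are neighbours and share chromatin, so they are not replicates of a cluster.

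H3K27me3 differed by paralogue number, taken here as position from anterior to posterior. The number is that of the gene and not the place of its window. The Hoxc5 window, of the central class, overlaps that of the posterior gene Hoxc10. The Hoxa3 window, of the anterior class, lies between those of Hoxa6 and Hoxa7. In wild type the median was 1152 in the anterior class, 1247 in the central and 1564 in the posterior class. The lowest posterior gene, Hoxd11, had 1239 counts, and 11 of the 22 anterior and central genes lay below it, while 8 posterior genes lay above every anterior and central gene. Paralogue number and wild type H3K27me3 had a Spearman rho of 0.54 over the 38 genes. Over the 34 genes whose window overlaps no other Hox window it was 0.52. Within clusters rho was 0.38 in A, 0.22 in B, 0.22 in C and 0.77 in D, so cluster D showed the strongest order and B and C little. Over the 18 genes with a RefSeq start inside the window rho was 0.37. In the library labelled EedcKO H3K27ac, the class medians were 1554, 1630 and 2140, and rho was 0.49, with 0.50 in A, 0.16 in B, 0.18 in C and 0.69 in D.

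The steps along the paralogue groups were not smooth. Wild type H3K27me3 had its lowest group median at group 6, with 1039, and its highest at group 10, with 1852. Group 1 was split, with 1527 counts at Hoxb1 and 1072 at Hoxd1, and group 2 had 1274 at Hoxa2 and 1152 at Hoxb2. At the posterior end, group 13 had 1310 at Hoxa13, 1773 at Hoxb13, 1407 at Hoxc13 and 1516 at Hoxd13. Within group 13 the counts of wild type Eed were 209, 21, 158 and 245 in the same order, so Hoxb13, the most isolated gene of its cluster, had the most H3K27me3 and the least Eed of its group. Wild type Eed followed no common order, with rho at 0.14 over the list, 0.69 in cluster C and -0.48 in cluster D.

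**Figure D4:**
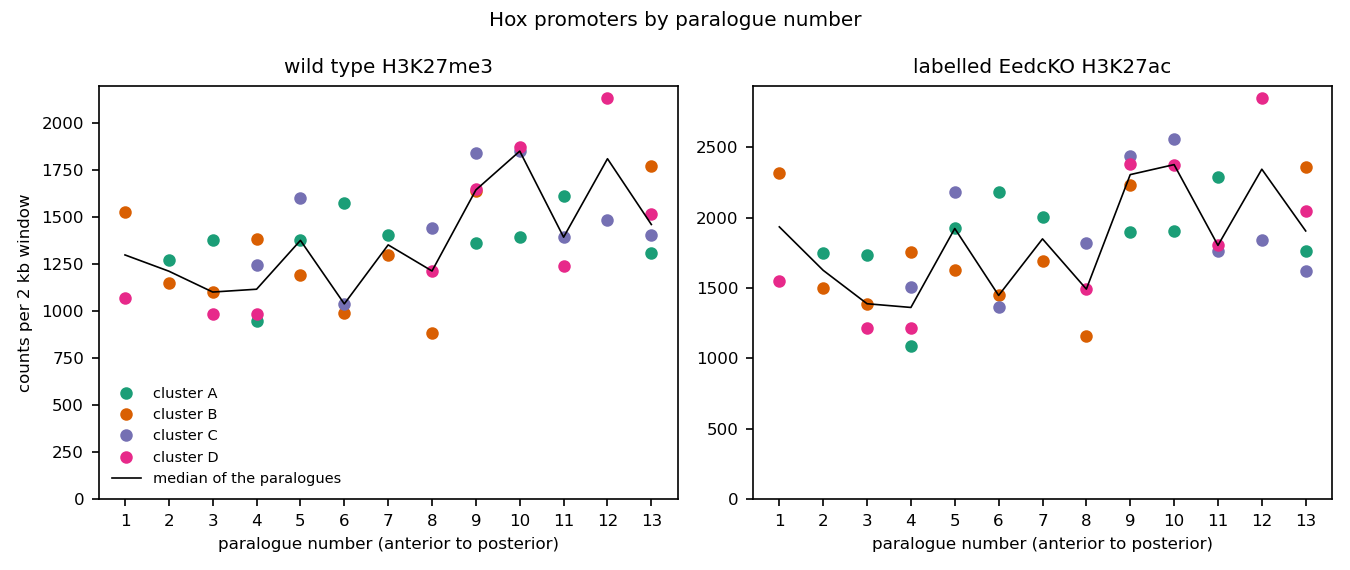
Counts per 2 kb promoter window against paralogue number (anterior to posterior) for wild type H3K27me3 and the library labelled EedcKO H3K27ac, with 1 point per Hox gene coloured by cluster and a line through the median of each paralogue group. Both axes start at 0, and in both libraries the groups 9 to 13 lie mostly above the groups 1 to 8, with medians of 1564 and 2140 in the posterior class.

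The H3K27me3 signal was also high at most windows of other genes inside the clusters. Only windows at annotated starts were counted, so the stretches between them were not measured. From the first to the last listed window, cluster A spans 98.0 kb of chromosome 6, B 173 kb of chromosome 11, C 99.8 kb of chromosome 15 and D 96.7 kb of chromosome 2, in the build mm10. These spans hold 42 windows of other genes, among them RNA genes such as Hoxb3os, with a median wild type H3K27me3 count of 1246 and a range of 288 to 1980. Of them, 36 were at or above the lowest Hox gene. Some of these windows, such as Gm28308 on Hoxa3 and Haglr on Hoxd1, overlap a Hox window and count the same reads. Such windows do not show signal away from Hox promoters, and 8 Hox windows overlap a window of another gene. In the library labelled EedcKO H3K27ac their median was 1661. Their median wild type Eed count was 20.5, at the level of input at 22.5 and below the Hox median of 87.

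Beside the clusters, the median H3K27me3 count was lower in windows farther than 10 kb from the outermost Hox genes than in nearer ones. The 10 windows of other genes within 10 kb had a median of 1361 wild type H3K27me3 counts, with 9 beside cluster A, 1 beside D and 0 beside B and C. Some of them overlap and count the same reads, such as Gm27985, Hottip and Gm27383. The windows of Gm27985 and Hottip also overlap that of Hoxa13, so the near windows are not separate places. The 8 windows from 10 to 50 kb had a median of 50.5. From 50 to 100 kb the median was 85 in 17 windows, and from 100 to 300 kb it was 62 in 39 windows. Of the 64 windows farther than 10 kb, 5 were at or above the lowest Hox gene. Among them were Gm11535, 15.8 kb beyond the posterior end of cluster B, with 1360 counts, and 5730585A16Rik, 39.4 kb beyond the anterior end of cluster C, with 1129. These named windows were chosen after their values were seen. In the library labelled EedcKO H3K27ac the same distances gave 1813, 53.5, 76 and 77, so the level dropped between the same bins of distance in both.

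The nearest protein-coding genes differed by side. Evx2, the homeobox gene next to Hoxd13, lay 7.75 kb away with 1463 counts, and Evx1, its relative beyond Hoxa13, lay 51.6 kb away with 1462. Evx1os, the antisense RNA gene of Evx1, had 2215, above every Hox gene. On the anterior sides, Mtx2 of cluster D had 47 counts at 61.8 kb, Skap1 of cluster B 154 at 97.8 kb, Skap2 of cluster A 513 at 151 kb and Smug1 of cluster C 670 at 147 kb. On the posterior sides of B and C, Ttll6 had 85 at 59.5 kb and Calcoco1 104 at 198 kb. In the library labelled EedcKO H3K27me3 these 8 genes had 13 to 55 counts.

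**Figure D5:**
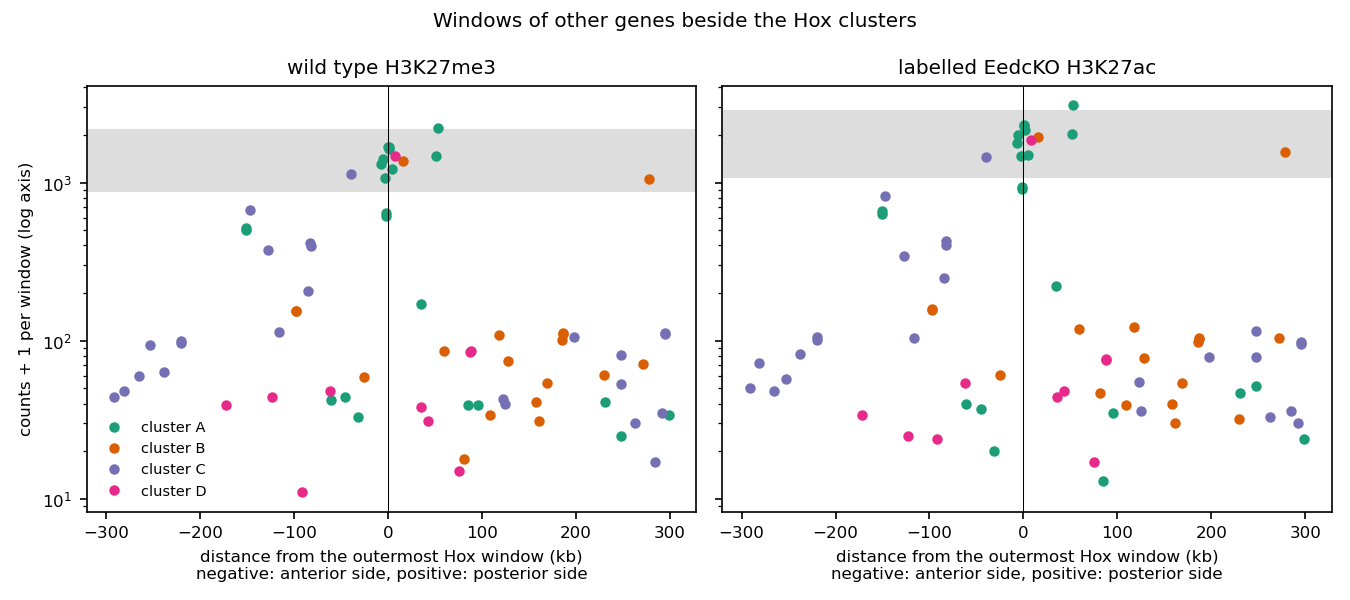
Counts + 1 (log axis) of windows of other genes against the distance in kb from the outermost listed Hox window, anterior side negative and posterior side positive, for wild type H3K27me3 and the library labelled EedcKO H3K27ac, with the Hox range in grey. Windows within 10 kb have medians of 1361 and 1813, and those from 10 to 50 kb of 50.5 and 53.5.

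The summits that the authors called in each library by itself showed the Hox genes differently. A wild type Eed summit lay within 1 kb of the start of 30 of the 38 Hox genes, beside 54.8% of all protein-coding genes, and an EedcKO Eed summit at 13, beside 16.0%. Within 5 kb, a wild type Eed summit lay near all 38, beside 64.6%, and an EedcKO Eed summit near 27, beside 31.1%. Wild type H3K27me3 had a summit at only 4 Hox genes, Hoxb1, Hoxb13, Hoxd1 and Hoxd12, beside 12.7%, and the library labelled EedcKO H3K27ac at the same 4 genes, beside 11.4%. Inside the clusters both of these libraries had 16 summits, 1 in A, 12 in B, 1 in C and 2 in D. The cluster A summit of wild type H3K27me3 ranked 12 and that of cluster C 21 among 10662 summits by the authors' score. The other 34 Hox genes had no summit within 1 kb in wild type H3K27me3, although their windows held 883 or more counts. The library labelled EedcKO H3K27me3, wild type H3K27ac and both RNA-Pol2 libraries had 0 summits at Hox genes and 0 inside the clusters. The shares of protein-coding genes with a summit were 2.5% and 21.7% in these histone libraries, and 10.3% in wild type and 40.3% in EedcKO RNA-Pol2.

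Other genes of the pathway were read from lists drawn up with earlier results known. The 13 homeobox genes linked to the Hox clusters or of the ParaHox group had a median of 1344 wild type H3K27me3 counts, against 1382 at the Hox genes. As labelled, all 13 were at least 2-fold lower in H3K27me3, beside 13% of all windows, with a median of -5.36. Exchanged, none was, beside 4.49%, with a median of 0.52. Their Eed median was -1.83, with 10 of 13 at least 2-fold lower beside 30.0% of all windows, among them Gbx1 (-2.81), En2 (-2.49) and Gbx2 (-2.43), which pattern the midbrain and hindbrain. Their RNA-Pol2 median was 0.06, with 0 past 2-fold.

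Hox cofactors, the TALE homeodomain partners of Hox proteins, showed another profile. Their 9 genes had a median of 68 wild type H3K27me3 counts and 82 of H3K27ac, against 1382 and 18 at the Hox genes. Relative to the median window, RNA-Pol2 was at least 2-fold higher in EedcKO at 5 of 9, beside 12.2% of all windows. Their median was 1.05, led by Pbx3 (1.35), Meis2 (1.31), Meis3 (1.10) and Pbx4 (1.09). The shift of -0.41 raised these ratios, and by library totals without it even Pbx3 would be below 2-fold. A rise relative to the median window was not particular to this list. The median count over protein-coding genes was 54 in wild type and 83 in EedcKO, and over all windows 38 and 37. Total RNA-Pol2 counts were 2482297 in wild type and 3842779 in EedcKO, so the coding medians show no rise per library total. In RPKM the median over all windows was 7.65 in wild type and 4.81 in EedcKO. As labelled, H3K27me3 was at least 2-fold lower at 4 of 9, beside 13%, with a median of 0.10. Exchanged, it was lower at 0 and higher at 1, beside 4.49% and 2.55%. Eed was at least 2-fold lower at 5 of 9, beside 30.0%, with a median of -1.17.

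The 17 retinoic acid genes and other regulators of Hox expression were mixed. As labelled, H3K27me3 had a median of -1.60, with 10 at least 2-fold lower beside 13% of all windows and 2 higher beside 6.81%. Aldh1a2, which makes retinoic acid, had 1407 wild type counts and a ratio of -5.17, Wnt3a had 961 and -5.12, and Cyp26a1, which degrades retinoic acid, had 1298 and -5.02. In the exchanged reading 0 were lower and 1 higher, beside 4.49% and 2.55% of all windows, with a median of 0.46. RNA-Pol2 had a median of 0.40, with 1 lower and 2 higher, beside 7.86% and 12.2%.

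The 17 RNA genes in or beside the clusters had H3K27me3 ratios near those of the Hox genes. As labelled, their median was -5.47 and 16 of 17 were at least 2-fold lower, beside 13% of all windows. Exchanged, 0 were lower or higher by 2-fold, beside 4.49% and 2.55%, with a median of 0.52. Halr1, the exception, had 41 wild type counts. Their Eed median was 0.20, with 4 lower beside 30.0% of all windows and 6 higher beside 22.6%. Hottip, beside Hoxa13, had 1689 wild type H3K27me3 counts and 11 of Eed, and Mir10b, between Hoxd genes, had 1467 and 3. Haglr, whose window overlaps that of Hoxd1 almost whole, had 1086 and 282. Counts carry no strand, so genes that share a window share reads, which holds for 8 Hox windows that overlap a window of another gene.

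The genes whose 12-library profile was nearest to the Hox median were developmental transcription factors of other lineages. The likeness is the Euclidean distance over log2 RPKM of the 12 libraries, without genes of the list. Foxa2, a factor of endoderm and floor plate, was nearest at 0.94, and others near were Tcf21 (1.03), Irx4 (1.04), Cdx2 (1.12), Foxa1 (1.13), Tlx1 (1.13), Prdm13 (1.15), 4930447C04Rik (1.25) and Pdx1 (1.25). The Hox genes themselves lay 0.76 to 3.99 from their median, with Hoxb8 farthest. In all, 68 other protein-coding genes lay within the median Hox distance of 1.75.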

How the data were processed

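The 12 libraries came from E12.5 forebrain, 1 per genotype and target. The authors deposited read counts for 55385 promoter windows per library; the tables are named for RPKM, but they hold whole numbers whose totals differ, so they were treated as counts. The deposited summit lists give 1 position per peak and the authors' score, a −log10 significance value; whether of p or of q is not stated. Per the submitters' processing notes the build was mm10 and the tools included ChIPseeker 1.22.1, deepTools 3.4.0, MACS2 2.2.7.1 and Bowtie2 2.4.1; the sources used here give no duplicate or quality filters.

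RPKM was computed from window length and total promoter count. Ratios used a pseudocount of 0.5 RPKM in windows averaging 1 RPKM or more across the pair, a filter that all 38 Hox genes passed in all 6 comparisons, and were shifted by the median of the tested windows: 0.88 for Eed, 0.85 and -0.29 for H3K27me3 as labelled and exchanged, -1.04 and 0.11 for H3K27ac and -0.41 for RNA-Pol2. Such a shift was subtracted from each ratio. A 2-fold change was the size rule. Counting intervals of a ratio are exact (Clopper-Pearson, 95%) and use no pseudocount; reads carried no molecular identifiers, so they cover counting error only. Intervals of medians are 95% order-statistic intervals over genes. Controls were input for Eed and IgG otherwise. Symbols were matched by Ensembl identifier, because 27 of them, none a Hox gene, had become dates in the library labelled EedcKO H3K27ac; 38896 symbols, with all 38 Hox genes, matched RefSeq GRCm38.p6. That table was used for gene type and promoter sequence. Scripts ran in Python 3.11.15 with numpy 2.4.6, pandas 2.3.3 and scipy 1.17.1, and were tested on simulated data.

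Named genes are the 4 highest and 4 lowest ratios per comparison, the extremes per library, groups 1, 2 and 13, the nearest coding genes and up to 4 members per list; Evx1os, Hottip, Mir10b, Haglr and single forebrain genes were named after their values were seen. Some genes that the rules pick are not reported here. The members and lists were chosen with earlier results of these data known. Alternatives covered scaling, pseudocount, filter, control subtraction, window sets and distances.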

Additional observations from a re-analysis of the deposited data

How the results depend on the processing

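Of 205 alternative values, 154 stayed and 51 moved. A median stayed if it lay in the 95% interval of its main value over genes, a count within 1.5 times and a rho within 0.1. The median of RNA-Pol2, whose interval included 0, changed sign under 1 scaling. By library totals without the shift, the medians were -4.90 and 0.22 for H3K27me3 as labelled and exchanged and 5.74 for H3K27ac as labelled. For Eed the median was -0.26, with 8 genes at least 2-fold lower beside 14.7% of all windows and 11 higher beside 47.2%. For RNA-Pol2 it was -0.47, with 4 lower beside 21.1%. With both libraries scaled to 1 median, Eed was at -1.81 with 2 genes higher, beside 8.3% of all windows. H3K27me3 exchanged was then at 0.65, and RNA-Pol2 at 0.16 with 2 higher, beside 19.9%. Over the control in that scaling, wild type Eed was at 2.67, H3K27me3 at 5.91 and H3K27ac at -0.40. With a pseudocount of 2 RPKM, H3K27me3 was at -5.28 as labelled and 0.42 exchanged, H3K27ac as labelled at 6.17 and wild type H3K27me3 over IgG at 4.57. In that setting 3 genes were higher for Eed, beside 15.1% of all windows, and 5 for H3K27ac exchanged, beside 6.88%. With 0.1 RPKM, H3K27me3 as labelled was at -5.88. For RNA-Pol2 1 gene was then lower and 1 higher, beside 10.7% and 13.7% of all windows. With the control subtracted, H3K27me3 was at -11.03 as labelled and 0.36 exchanged, H3K27ac as labelled at 12.62, Eed at -0.47 and RNA-Pol2 at -0.38. For Eed 14 genes were lower, beside 42.9% of all windows, and 13 higher, beside 46.4%. For H3K27ac exchanged 2 were lower, beside 34.8%, and for RNA-Pol2 15 were lower, beside 28.5%. Values at or below their control set the size of these ratios by construction. In the other cases the cause was not tested.

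The 18 Hox genes with a RefSeq start inside the window were a set chosen after seeing the data. Among them 1 was at least 2-fold higher for Eed, against 5 of all 38 and beside 22.6% of all windows. In this set rho with paralogue number was 0.37 for wild type H3K27me3 and 0.00 for wild type Eed. Within clusters A to D rho was 0.38, 0.22, 0.22 and 0.77 for wild type H3K27me3, 0.16, 0.18 and 0.69 in B to D for the library labelled EedcKO H3K27ac, and 0.35, 0.69 and -0.48 in B to D for wild type Eed. Within 100 kb of the clusters, the median of other windows was 169 for wild type H3K27me3 and 221 for the library labelled EedcKO H3K27ac, against 85 and 88 within 300 kb. Summits within 500 bases or 5 kb reached 6 or 27 Hox genes for EedcKO Eed and 2 or 8 for the library labelled EedcKO H3K27ac. No paired analysis was possible because each genotype had 1 library per target. Depth limits the low libraries: the counting interval of the ratio included 0 at 26 Hox genes for H3K27ac exchanged and at 33 for RNA-Pol2.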
